A study of Mus musculus with 21 samples.

Results

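The comparison described here sets Nes-low mesenchymal cells of the bone marrow from mice with late HL60 leukemia against the same sorted population from mice that received no leukemia cells. Its 6 libraries were taken by their column names from the table of 21 libraries, 3 of the group HL60 late (replicates 397, 398 and 399) and 3 of the group ctrl (replicates 373, 374 and 375). All groups came from Nestin+ NSG mice, in which the Nestin promoter drives a green fluorescent protein and which lack T, B and natural killer cells, and the animals were 8 to 12 weeks old and unconditioned at transplant. HL60 late mice had been injected with HL60, a human acute myeloid leukemia cell line that carried the secreted red protein sLP-mCherry, and were taken at a late time point of the leukemia, while ctrl mice stayed unengrafted. No cherry gate was used for either group. A pair of further groups of 3 libraries each serves for direct tests: ML1 late, from the same strain with the human leukemia line ML1 at a late time point, and HL60 early ch+, cells sorted as cherry-positive at an early time point of HL60 leukemia.

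Nes-low stromal cells of the marrow overlap with the reticular cells that make much Cxcl12, also called CAR cells, which are recognised by the leptin receptor and by the receptors of platelet-derived growth factor. They keep blood stem cells in place through Cxcl12 and feed them through stem cell factor, and their lineage gives rise to osteoblasts, which lay down bone matrix, and to marrow adipocytes.

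The deposited values are regularized log2 values, so a difference of 1 is a doubling, values of weakly expressed genes are pulled toward their mean, and levels of different genes are not comparable because no length was taken into account. Read counts were not used here, and the depth of each library is not given. After conversion from log2, the values summed to 11.9, 12.8 and 14.2 (in units of 1e6) in the ctrl libraries and to 8.72, 9.02 and 8.41 in the HL60 late libraries. The rRNA gene CT010467.1 held 29.7%, 34.2% and 31.5% of the sum in ctrl and 24.1%, 26.2% and 25.2% in HL60 late. Pearson's r over the tested genes, which are not independent replicates, was 0.938 to 0.948 between ctrl libraries, 0.965 to 0.969 between HL60 late libraries and 0.915 to 0.931 across the 2 groups. The labels do not state that replicates are separate mice, so the p-values measure the spread between samples. No sort or sequencing date is given, so batch and group cannot be told apart. In bulk RNA, fewer cells of a type and less RNA per cell cannot be told apart either.

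The markers of the sorted population were read first, because the label's extraction text speaks of CD31+ endothelial cells for every sample while the source name gives Nes-low mesenchymal cells. Cxcl12 stood at 15.57, 14.89 and 15.11 in ctrl and 16.21, 16.44 and 16.10 in HL60 late. Lepr, the leptin receptor, stood at 13.06, 12.24 and 12.50 in ctrl and 14.29, 14.51 and 14.36 in HL60 late. Pdgfra, which encodes a receptor of platelet-derived growth factor, stood at 11.59, 11.86 and 11.91 in ctrl and 11.63, 11.66 and 11.50 in HL60 late. All 3 genes were therefore high in every library, and so was Adipoq, which encodes adiponectin, at 11.26, 10.57 and 10.71 in ctrl and 10.97, 11.72 and 10.91 in HL60 late. Nes itself stood at 7.14, 7.61 and 7.43 in ctrl and 7.38, 6.73 and 6.66 in HL60 late, with overlapping groups. Pecam1, which encodes CD31, stood at 5.44, 5.33 and 6.0 in ctrl and 4.67, 5.22 and 5.60 in HL60 late, and the pan-leukocyte gene Ptprc at 2.49, 2.58 and 2.61 in ctrl and 2.54, 2.44 and 2.44 in HL60 late. None of Nes, Pdgfra, Adipoq, Pecam1 and Ptprc was called between the groups, nor were the endothelial genes Cdh5, Kdr and Emcn. Their log2 fold changes ran from -0.47 for Nes to 0.55 for Emcn, although those of Nes, Pdgfra, Pecam1, Ptprc and Kdr took a positive sign once the libraries were rescaled to their totals.

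In late HL60 leukemia, most tested genes in the lists of CAR cells, chemokines and complement were higher in Nes-low cells. Most of those in the lists of bone matrix and of cartilage were lower. Of 28 tested interferon-stimulated genes 12 were higher, a count that was 6 without HL60 late 399. Of 12980 tested genes, 838 (6.46%) were higher and 940 (7.24%) lower in HL60 late than in ctrl at an adjusted p under 0.1 in limma. The median absolute log2 fold change of the called genes was 1.15, and 1113 of them moved by at least 1, of which 557 were higher and 556 lower. The median over all tested genes was 0.01. Counts for the lists below are to be read against these shares of 6.46% and 7.24%, which a list with few calls may not exceed. All 3 HL60 late libraries lay above all 3 ctrl libraries for 1681 genes (13.0%) and below them for 1727 genes (13.3%), and 1676 genes were both called and apart in this way. Rescaling each library to its total added 0.57 to every log2 fold change, because the HL60 late sums were lower, and the share of called genes that were higher went from 47.1% to 93.1%. The library totals are not independent of the falls reported below. After conversion from log2, osteoblast matrix and mineral genes alone summed to 2326383, 2481729 and 3008014 in ctrl. In HL60 late they summed to 947259, 966715 and 759477. Every one of the 838 higher calls kept its direction and its call under that rescaling, against 379 of the 940 lower calls, so directions below are given on the deposited scale and changes under rescaling are given with the lists or after them. In no list did this rescaling lower the count of higher genes or raise that of lower genes. The direction of a higher call cannot change under an upward shift, so this rescaling is a check of the lower calls only. Where leave-one-out fits are given, the library left out is in brackets.

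**Figure D1:**
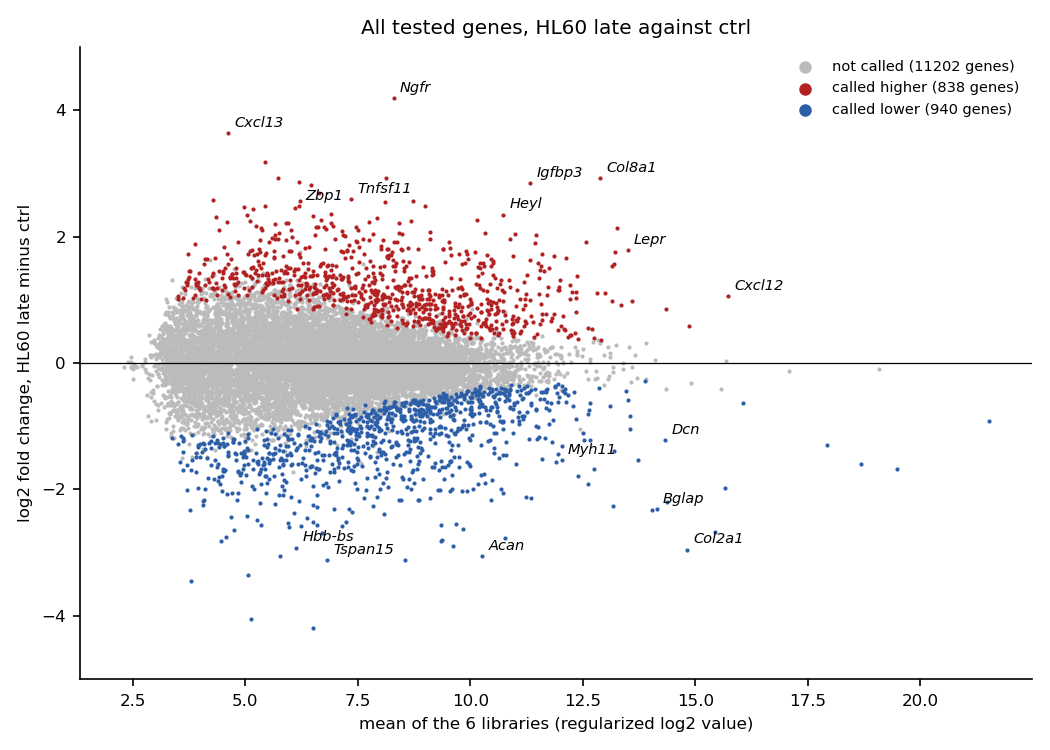
Mean regularized log2 value over the 6 libraries (horizontal axis) against the log2 fold change of HL60 late minus ctrl (vertical axis) for every tested gene except 1, AY036118, which lies outside the drawn range. Red points are the 838 genes called higher and blue points the 940 genes called lower at an adjusted p under 0.1, and grey points were not called.

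Ngfr (ENSMUSG00000000120, chromosome 11, 95568818 to 95587735, GRCm38), the low-affinity nerve growth factor receptor that also marks marrow stromal progenitors, stood at 7.63, 5.74 and 5.24 in ctrl and 10.17, 10.69 and 10.33 in HL60 late. It rose by 4.19 (adjusted p = 6.78e-06). Cxcl13 (ENSMUSG00000023078, chromosome 5, 95956951 to 95961068), the chemokine that draws B cells into follicles, stood at 2.83, 2.78 and 2.80 in ctrl and 5.89, 7.26 and 6.18 in HL60 late. It rose by 3.64 (adjusted p = 7.51e-07). Serpina3h, a secreted protease inhibitor of the antichymotrypsin family, stood at 3.75, 3.41 and 4.40 in ctrl and 6.65, 7.48 and 6.98 in HL60 late and rose by 3.18 (adjusted p = 3.71e-06). Cldn1, a tight junction claudin, stood at 7.56, 6.67 and 5.72 in ctrl and 9.63, 9.89 and 9.24 in HL60 late. It rose by 2.93 (adjusted p = 2.3e-06). Tfr2, a transferrin receptor that senses iron, stood at 3.03, 2.98 and 3.00 in ctrl and 5.01, 5.67 and 6.08 in HL60 late. It rose by 2.58 (adjusted p = 7.93e-05), and its ctrl values, too, lay close to the floor.

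Among the largest falls was Tspan15, a tetraspanin that binds the protease ADAM10, at 7.96, 8.40 and 8.78 in ctrl and 6.28, 5.09 and 4.41 in HL60 late. It fell by 3.12 (adjusted p = 6.13e-06). Macrod2os2, a non-coding transcript on the strand opposite Macrod2, stood at 6.65, 6.72 and 6.83 in ctrl and 3.30, 3.22 and 3.63 in HL60 late and fell by 3.35 (adjusted p = 2.17e-06). Rsc1a1, a regulator of solute carriers whose gene lies within Ddi2, stood at 6.38, 2.20 and 7.96 in ctrl and 2.15, 2.03 and 2.02 in HL60 late. Only ctrl 373 and 375 were high, ctrl 374 lay almost at the HL60 late level, and the fall was 3.45 (adjusted p = 0.0505). Rsc1a1 lost its call without ctrl 373 (-3.01) or 375 (-2.22) or HL60 late 397 (-3.49), 398 (-3.43) or 399 (-3.42). Reads of Rsc1a1 and Ddi2, or of Macrod2os2 and Macrod2os1, cannot be told apart with certainty where these pairs overlap on the same strand. The most strongly lower genes without a curated name were AY036118, Gm28439 and Gm21451. AY036118, a transcript inside the rRNA gene CT010467.1 on chromosome 17, stood at 17.26, 15.43 and 19.01 in ctrl and 1.51, 1.23 and 1.22 in HL60 late. The 2 further groups were at the floor like HL60 late, with 0.94, 0.97 and 1.22 in ML1 late and 1.57, 1.58 and 1.27 in HL60 early ch+. It passed the filter only through ctrl, with a mean of 4.35 over the 21 libraries and 2.21 without ctrl, which favours a lower call. The reason for its high values was not tested.

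Of the 21 tested members of a list of 22 CAR cell and mesenchymal stem cell genes, 16 were higher and 1 lower, and the list median was 0.92 against 0.01 for all tested genes. Lepr rose by 1.79 (adjusted p = 2.93e-09), with all HL60 late libraries above all ctrl libraries. Cxcl12, the chemokine that retains blood stem cells, rose by 1.06 (adjusted p = 0.000105), and here too the groups did not overlap. Kitl, which encodes stem cell factor, stood at 10.27, 9.98 and 9.88 in ctrl and 10.81, 11.27 and 10.61 in HL60 late and rose by 0.85 (adjusted p = 0.00539). Cxcl14, a chemokine of the same class, stood at 8.77, 8.33 and 8.37 in ctrl and 10.24, 10.43 and 10.20 in HL60 late. Its libraries were tight within each group, and the rise was 1.80 (adjusted p = 6.84e-06). Pdgfrb, the beta receptor of platelet-derived growth factor, stood at 11.07, 10.88 and 11.06 in ctrl and 12.84, 12.59 and 12.69 in HL60 late and rose by 1.70 (adjusted p = 3.04e-09). Ebf3, a transcription factor that maintains CAR cells, stood at 11.51, 10.59 and 10.86 in ctrl and 12.42, 12.73 and 12.32 in HL60 late and rose by 1.50 (adjusted p = 1.17e-05). The alpha receptor Pdgfra was not part of this rise, with a log2 fold change of -0.19 (adjusted p = 0.407) that became 0.38 under rescaling. No member of the list was higher in HL60 late than in ML1 late, and Pdgfrb was lower by 0.58 in that test.

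Osteoblast genes fell. Of 20 tested genes of bone matrix and mineral, 15 were lower and 2 higher, with a median of -1.26. Bglap, which encodes osteocalcin, a hormone-like protein of mature osteoblasts, stood at 15.25, 15.27 and 15.36 in ctrl and 13.24, 12.94 and 12.77 in HL60 late. It fell by 2.31 (adjusted p = 7.98e-12). Its neighbours in the same cluster on chromosome 3 moved alike: Bglap2 fell by 2.32 (adjusted p = 7.98e-12), and Bglap3 fell by 2.16 (adjusted p = 1.12e-08). These related genes share much sequence, so reads of each cannot be fully told apart. Col11a2, a fibrillar collagen chain, stood at 14.23, 14.18 and 14.52 in ctrl and 12.29, 12.00 and 11.86 in HL60 late and fell by 2.26 (adjusted p = 2.28e-11). Phospho1, the phosphatase that starts mineral formation in matrix vesicles, stood at 11.03, 10.75 and 10.73 in ctrl and 9.28, 8.54 and 8.63 in HL60 late and fell by 2.02 (adjusted p = 3.77e-07). The direction of the list held under rescaling to library totals, with a median of -0.69 and 13 members lower and 4 higher.

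Transcription factors of the osteoblast lineage were lower in part, 4 of 10 tested with none higher and a median of -0.45, which turned to 0.12 when the libraries were rescaled to their totals, and leave-one-out fits gave 1 higher (ctrl 374). Sp7, or osterix, is needed for osteoblasts to form. It stood at 11.39, 11.50 and 11.49 in ctrl and 10.09, 9.97 and 9.97 in HL60 late, almost without spread inside either group, and fell by 1.45 (adjusted p = 1.04e-06). Dlx3, a homeobox factor that drives osteocalcin, stood at 10.38, 10.36 and 10.70 in ctrl and 9.0, 8.83 and 8.29 in HL60 late and fell by 1.77 (adjusted p = 5.17e-05). Mef2c, a factor active in osteoblasts and osteocytes, stood at 11.88, 11.70 and 11.86 in ctrl and 10.39, 10.13 and 10.11 in HL60 late and fell by 1.60 (adjusted p = 9.89e-10).

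Of 4 tested osteoclast regulators, 3 were higher and none was lower, with a median of 0.97, and leave-one-out fits gave a median of 0.60 (HL60 late 398) and 1 higher (HL60 late 398). Tnfsf11, which encodes RANKL, the cytokine that osteoclasts need, stood at 6.81, 5.45 and 5.90 in ctrl and 8.46, 8.76 and 8.73 in HL60 late. It rose by 2.59 (adjusted p = 3.51e-05). Il34, which encodes a ligand of the macrophage colony-stimulating factor receptor, stood at 7.10, 6.42 and 6.85 in ctrl and 7.84, 9.48 and 7.35 in HL60 late, with HL60 late 398 well above the rest, and rose by 1.43 (adjusted p = 0.00604). Il34 lost its call without HL60 late 398 (0.80).

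Cartilage genes had the lowest median of the 51 lists. Of 19 tested cartilage matrix genes, 18 were lower and none was higher, with a median of -2.53. Col2a1, the main collagen of cartilage, stood at 16.96, 15.83 and 16.08 in ctrl and 13.60, 13.50 and 12.93 in HL60 late. It fell by 2.95 (adjusted p = 2.33e-08). Acan, the large proteoglycan aggrecan, stood at 12.41, 11.16 and 11.83 in ctrl and 8.43, 9.43 and 8.37 in HL60 late and fell by 3.06 (adjusted p = 0.000198). Matn3, a matrilin that links cartilage fibrils, stood at 10.85, 9.51 and 9.97 in ctrl and 7.22, 7.49 and 6.29 in HL60 late and fell by 3.11 (adjusted p = 0.00082). Epyc, a small proteoglycan of growth cartilage, stood at 7.67, 7.04 and 7.20 in ctrl and 4.60, 4.27 and 3.87 in HL60 late and fell by 3.06 (adjusted p = 3.09e-05). Col9a1, a chain of the collagen that coats those fibrils, stood at 11.83, 10.62 and 10.76 in ctrl and 8.60, 8.19 and 7.70 in HL60 late and fell by 2.90 (adjusted p = 0.00325). In all 5 genes the groups were apart, and ctrl 373 had the highest value of the 6 libraries. Under rescaling, 17 members were still lower and the median was -1.96.

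Genes of hypertrophic chondrocytes, the last stage before cartilage turns to bone, split: 5 of 7 tested were lower and 2 higher, with a median of -0.88 (-0.31 with 3 lower under rescaling). Panx3, a channel protein of maturing chondrocytes and osteoblasts, stood at 10.30, 9.83 and 9.65 in ctrl and 7.97, 7.93 and 7.40 in HL60 late and fell by 2.16 (adjusted p = 6.81e-07). Pth1r, the receptor of parathyroid hormone, stood at 11.12, 11.08 and 10.93 in ctrl and 9.79, 10.05 and 9.64 in HL60 late and fell by 1.21 (adjusted p = 1.19e-06). Col10a1, the collagen that defines the stage, stood at 8.99, 7.28 and 7.02 in ctrl and 5.76, 5.41 and 4.59 in HL60 late. The groups did not overlap but were widely spread, and it fell by 2.51 (adjusted p = 0.06). Col10a1 lost its call without ctrl 373 (-1.90) or HL60 late 398 (-2.59) or 399 (-2.18). Mmp13, a collagenase of the same cells that stromal cells also make, stood at 12.28, 12.14 and 12.82 in ctrl and 13.83, 14.14 and 13.94 in HL60 late and rose by 1.56 (adjusted p = 4.66e-08), against the direction of the other 3.

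**Figure D2:**
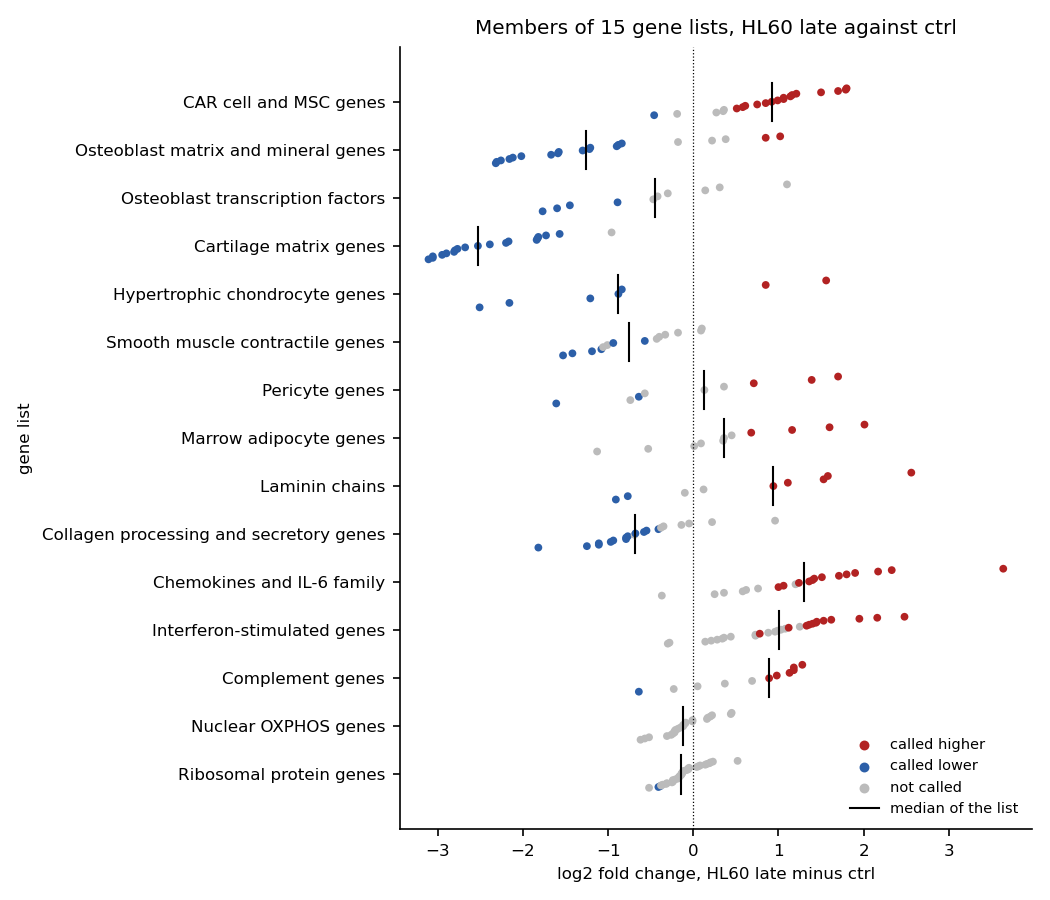
Log2 fold change of HL60 late minus ctrl (horizontal axis) for each tested member of 15 gene lists (vertical axis), with the list median as a black bar. Red points were called higher and blue points lower at an adjusted p under 0.1, and the medians run from -2.53 for cartilage matrix genes to 1.30 for chemokines, with those of osteoblast transcription factors, OXPHOS and ribosomal genes turning positive under rescaling to library totals.

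Contractile genes of smooth muscle were lower where they were called, 6 of 14 tested with none higher, and their median was -0.76. Under rescaling, 2 were higher and 2 lower, with a median of -0.19. Leave-one-out fits gave 4 lower (ctrl 374, HL60 late 398), 5 lower (HL60 late 397, 399) and 7 lower (ctrl 375). Myh11, the smooth muscle myosin heavy chain, stood at 12.68, 13.51 and 12.19 in ctrl and 11.15, 11.17 and 11.49 in HL60 late. It fell by 1.53 (adjusted p = 0.000153). Acta2, smooth muscle actin, stood at 12.24, 12.92 and 11.61 in ctrl and 11.28, 10.67 and 11.25 in HL60 late and fell by 1.19 (adjusted p = 0.00481).

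Pericyte genes moved in both directions, with 3 of 9 higher and 2 lower and a median of 0.13. Leave-one-out fits gave a median of -0.20 (ctrl 373), 0.23 (ctrl 374), 0.36 (ctrl 375), 0.20 (HL60 late 397) and 0.06 (HL60 late 398). Cspg4, the NG2 proteoglycan on the pericyte surface, stood at 10.40, 10.41 and 10.11 in ctrl and 8.63, 8.72 and 8.75 in HL60 late and fell by 1.61 (adjusted p = 1.55e-05). Abcc9, a subunit of a potassium channel of pericytes, stood at 9.72, 9.65 and 10.06 in ctrl and 11.27, 11.26 and 11.08 in HL60 late and rose by 1.39 (adjusted p = 4.59e-06). Notch3, a receptor that pericytes need, stood at 11.29, 11.83 and 11.26 in ctrl and 12.08, 12.37 and 12.04 in HL60 late and rose by 0.71 (adjusted p = 0.012). The 3 genes were apart between the groups, so a common direction of the list cannot be given.

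In the list of marrow adipocyte genes, 4 of 11 tested members were higher and none was lower, with a median of 0.36 (0.57 without ctrl 374). Pparg, the master regulator of adipocytes, stood at 6.44, 6.66 and 5.55 in ctrl and 8.07, 8.34 and 8.28 in HL60 late and rose by 2.01 (adjusted p = 5.24e-05). Cebpa, its partner transcription factor, stood at 6.49, 7.08 and 6.60 in ctrl and 8.29, 8.22 and 8.45 in HL60 late and rose by 1.60 (adjusted p = 0.00138). Adipoq had a log2 fold change of 0.35 (adjusted p = 0.431).

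Of 9 tested laminin chains, which build basement membranes, 5 were higher and 2 lower, with a median of 0.94, and leave-one-out fits gave 1 lower (ctrl 374, HL60 late 397, 398). Lama1 stood at 4.54, 4.97 and 5.31 in ctrl and 7.59, 7.40 and 7.50 in HL60 late and rose by 2.56 (adjusted p = 4.1e-05). Lama4, the alpha chain of vascular and marrow basement membranes, stood at 9.64, 9.56 and 9.42 in ctrl and 11.04, 10.97 and 11.20 in HL60 late and rose by 1.53 (adjusted p = 1.38e-08). Of 10 basement membrane collagens and nidogens, 5 were higher and 2 lower, with a median of 0.68 (0.40 without ctrl 375). Col8a1, a short-chain collagen of vessel walls, stood at 12.03, 11.15 and 11.10 in ctrl and 14.46, 13.87 and 14.70 in HL60 late, more than 1.5 log2 units apart between the groups at the closest pair, and rose by 2.92 (adjusted p = 4.55e-09). Col4a1, the chain found in every basement membrane, stood at 11.58, 11.69 and 11.78 in ctrl and 13.10, 13.05 and 13.02 in HL60 late and rose by 1.37 (adjusted p = 2.93e-09).

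Fibril-forming and beaded collagens were divided, with 3 of 12 interstitial collagen genes higher and 4 lower (median 0.17), or 7 and 3 under rescaling (median 0.74), and leave-one-out fits gave a median of 0.28 (ctrl 373) and 0.02 (ctrl 374). Col24a1, a fibrillar chain of bone, stood at 11.05, 11.25 and 11.53 in ctrl and 9.45, 9.31 and 9.39 in HL60 late and fell by 1.89 (adjusted p = 1.97e-09). Col6a1, which forms beaded filaments around cells, stood at 11.94, 11.47 and 11.70 in ctrl and 12.94, 12.66 and 12.91 in HL60 late and rose by 1.13 (adjusted p = 1.52e-06). Small leucine-rich proteoglycans, which regulate fibril thickness, were lower in 4 of 9 cases and higher in 1, with a median of -0.14 that turned to 0.43 under rescaling, with 5 higher and 2 lower, and leave-one-out fits gave a median of 0.06 (ctrl 373), -0.28 (ctrl 375) and 2 higher (ctrl 375). Dcn, or decorin, stood at 14.84, 15.00 and 15.00 in ctrl and 13.63, 13.91 and 13.63 in HL60 late and fell by 1.22 (adjusted p = 3.54e-08). Ogn, or osteoglycin, was the exception at 10.26, 10.15 and 9.26 in ctrl and 11.18, 11.14 and 11.37 in HL60 late, a rise of 1.34 (adjusted p = 2.03e-05).

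Among 27 matricellular and elastic fibre genes, 9 were higher and 9 lower, with a median of 0.32 (0.89 with 14 higher and 6 lower under rescaling), and leave-one-out fits gave a median of 0.12 (ctrl 374), 0.16 (ctrl 375) and 0.21 (HL60 late 397). Fbn1, or fibrillin, the scaffold of elastic microfibrils, stood at 12.55, 11.94 and 12.12 in ctrl and 14.35, 14.26 and 14.39 in HL60 late. The 3 HL60 late values were within 0.2 log2 units of each other and all above ctrl, a rise of 2.13 (adjusted p = 7.72e-11). Mfap4, a glycoprotein of those microfibrils, stood at 4.51, 4.96 and 4.20 in ctrl and 6.31, 6.91 and 7.05 in HL60 late and rose by 2.20 (adjusted p = 0.000457). Thbs1, or thrombospondin, which activates latent TGF-beta, stood at 13.24, 13.23 and 13.41 in ctrl and 11.41, 11.49 and 11.61 in HL60 late and fell by 1.79 (adjusted p = 5.55e-09).

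Matrix proteases and their inhibitors gave 5 higher and 4 lower of 22 tested (median 0.19), or 14 higher and 1 lower under rescaling, and leave-one-out fits gave a median of 0.10 (HL60 late 398) and 2 lower (ctrl 375, HL60 late 399). Mmp11, or stromelysin, a protease typical of activated stroma, stood at 7.23, 7.06 and 8.03 in ctrl and 10.12, 10.14 and 9.77 in HL60 late and rose by 2.57 (adjusted p = 1.6e-07). Plat, the tissue activator of plasminogen, stood at 6.35, 6.89 and 6.66 in ctrl and 8.87, 8.63 and 9.08 in HL60 late and rose by 2.23 (adjusted p = 1.69e-05). Mmp16, a membrane-bound protease, stood at 10.74, 10.61 and 11.11 in ctrl and 9.27, 9.23 and 9.05 in HL60 late and fell by 1.63 (adjusted p = 1.8e-07).

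The machinery that folds, modifies and exports collagen fell with the bone collagens: 13 of 20 tested genes were lower and none was higher, with a median of -0.69 (-0.12 with 4 higher and 6 lower under rescaling). Leave-one-out fits gave 1 higher (ctrl 373), 9 lower (ctrl 373, HL60 late 398) and 10 lower (ctrl 375). Serpinh1, the collagen chaperone, stood at 13.05, 12.88 and 13.24 in ctrl and 12.31, 11.30 and 12.22 in HL60 late. It fell by 1.11 (adjusted p = 7.86e-05). Creb3l1, a transcription factor that raises secretory capacity in osteoblasts, stood at 12.44, 12.29 and 12.59 in ctrl and 11.28, 11.40 and 10.89 in HL60 late and fell by 1.25 (adjusted p = 3.71e-06).

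Of 17 tested Wnt ligands and receptors, 3 were higher and 2 lower with a median of 0.20, or 8 higher and 0 lower under rescaling, and leave-one-out fits gave a median of 0.13 (ctrl 374) and 0.00 (HL60 late 399). Fzd1, a Wnt receptor, stood at 8.83, 8.47 and 9.64 in ctrl and 9.78, 10.47 and 9.91 in HL60 late and rose by 1.07 (adjusted p = 0.00305). Lrp4, through which sclerostin acts on bone, stood at 11.18, 11.08 and 11.41 in ctrl and 10.48, 10.79 and 10.32 in HL60 late and fell by 0.69 (adjusted p = 0.00577), a call lost under rescaling. Of 12 Wnt inhibitors and targets, 5 were higher and 4 lower with a median of 0.54, and leave-one-out fits gave 2 lower (ctrl 374, HL60 late 398, 399). Sfrp2, a secreted Wnt antagonist, stood at 7.68, 7.56 and 7.46 in ctrl and 9.96, 9.19 and 10.28 in HL60 late and rose by 2.24 (adjusted p = 4.88e-07), whereas Frzb, an antagonist abundant in cartilage, stood at 7.35, 7.99 and 8.29 in ctrl and 5.59, 4.63 and 5.70 in HL60 late and fell by 2.57 (adjusted p = 6.57e-05).

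In the BMP and TGF-beta family, 10 of 33 tested genes were higher and 2 lower, with a median of 0.16, and leave-one-out fits gave a median of 0.33 (ctrl 373), 6 higher (HL60 late 399) and 4 lower (HL60 late 398). Bmp6, a bone morphogenetic protein that also sets hepcidin output, stood at 9.40, 9.12 and 9.15 in ctrl and 11.07, 10.85 and 11.00 in HL60 late and rose by 1.75 (adjusted p = 4.29e-08). Fst, or follistatin, a secreted trap of activins, stood at 7.62, 6.02 and 6.85 in ctrl and 8.73, 10.10 and 9.31 in HL60 late and rose by 2.55 (adjusted p = 1.27e-05).

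The insulin-like growth factor genes were mostly higher, 5 of 9 tested with 1 lower and a median of 0.58, and leave-one-out fits gave 0 lower (ctrl 373, 374, HL60 late 397, 398, 399). Igf1, the growth factor itself, stood at 10.89, 10.14 and 10.35 in ctrl and 12.26, 12.74 and 12.43 in HL60 late and rose by 2.02 (adjusted p = 8.46e-08). Igfbp3, its main carrier in blood, stood at 10.31, 9.20 and 10.18 in ctrl and 12.31, 13.74 and 12.20 in HL60 late. HL60 late 398 stood highest and the groups were apart, a rise of 2.85 (adjusted p = 2.15e-07).

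Of 16 tested Notch and Hedgehog genes, 5 were higher and 3 lower (median 0.31). Heyl, a transcriptional repressor induced by Notch, stood at 9.66, 9.76 and 9.23 in ctrl and 11.75, 11.87 and 12.08 in HL60 late. It rose by 2.35 (adjusted p = 8.95e-11). Hey1, its relative, stood at 7.03, 5.98 and 7.36 in ctrl and 8.86, 9.03 and 9.35 in HL60 late and rose by 2.29 (adjusted p = 7.79e-06). Hhip, a target and decoy receptor of Hedgehog, stood at 7.30, 7.66 and 6.52 in ctrl and 5.29, 5.68 and 4.99 in HL60 late and fell by 1.84 (adjusted p = 0.00387).

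Of 19 tested fibroblast growth factor and angiogenic genes, 5 were higher and 3 lower, with a median of 0.33. Leaving out 1 library gave a median of 0.07 (ctrl 373), 0.53 (ctrl 375), 0.12 (HL60 late 399) and 3 higher (HL60 late 398). Vegfc, the growth factor of lymphatic vessels, stood at 8.62, 7.38 and 7.55 in ctrl and 9.49, 9.34 and 9.52 in HL60 late and rose by 1.60 (adjusted p = 0.000102). Angpt1, the angiopoietin that calms vessels and stem cells, stood at 7.90, 6.99 and 7.28 in ctrl and 8.54, 8.76 and 8.27 in HL60 late and rose by 1.14 (adjusted p = 0.00314).

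Genes of axon guidance and neurotrophin signalling, many of which act between stroma, nerves and vessels, were lower in 11 and higher in 6 of 23 tested cases, with a median of -0.63 (-0.06 with 10 higher and 8 lower under rescaling). Nrp1, or neuropilin, which binds class 3 semaphorins and vascular endothelial growth factor, stood at 9.48, 9.16 and 9.24 in ctrl and 11.45, 11.29 and 11.30 in HL60 late and rose by 2.05 (adjusted p = 4.61e-11). Sema3d, a secreted semaphorin of that class, stood at 10.97, 10.85 and 10.99 in ctrl and 9.09, 8.82 and 8.85 in HL60 late and fell by 2.02 (adjusted p = 3.54e-08). Ntn1, the guidance cue netrin, stood at 7.87, 9.35 and 9.16 in ctrl and 6.70, 7.49 and 6.77 in HL60 late and fell by 1.80 (adjusted p = 0.000376).

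Chemokines had the highest median of the 51 lists. Of 20 tested chemokine and interleukin-6 family genes, 13 were higher and none was lower, with a median of 1.30. Cxcl9, which attracts T cells and is induced by interferon gamma, stood at 5.82, 5.34 and 4.85 in ctrl and 7.63, 7.14 and 8.24 in HL60 late. All HL60 late libraries were above ctrl, replicate 399 most of all, and Cxcl9 rose by 2.33 (adjusted p = 0.00629). Cxcl10, a chemokine of the same receptor, stood at 4.0, 3.77 and 4.71 in ctrl and 6.36, 5.60 and 7.03 in HL60 late and rose by 2.17 (adjusted p = 0.0025). Ccl2, which attracts monocytes, stood at 6.25, 6.67 and 5.81 in ctrl and 7.55, 7.69 and 7.69 in HL60 late, with HL60 late values within 0.2 log2 units of each other, and rose by 1.40 (adjusted p = 0.0201). Ccl2 lost its call without ctrl 375 (1.18). Il1rn, the natural antagonist of the interleukin-1 receptor, stood at 11.18, 10.09 and 10.22 in ctrl and 12.31, 12.54 and 12.34 in HL60 late and rose by 1.90 (adjusted p = 1.99e-06). Under rescaling 19 were higher with a median of 1.87, but that step adds 0.57 to every log2 fold change and cannot turn a rise.

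Interferon-stimulated genes were higher in 12 of 28 tested cases, lower in none, and had a median of 1.01. The count depended on a single library, since 6 were called without HL60 late 399, where the median was 0.89. Zbp1, a sensor of unusual nucleic acids, stood at 5.56, 5.27 and 4.03 in ctrl and 7.34, 6.99 and 7.95 in HL60 late and rose by 2.48 (adjusted p = 2.4e-05). The guanylate-binding proteins Gbp2 and Gbp7 are GTPases that act against intracellular microbes. Gbp2 stood at 5.91, 6.53 and 6.73 in ctrl and 8.14, 8.10 and 9.40 in HL60 late and rose by 2.16 (adjusted p = 5.24e-05). Gbp7 stood at 7.62, 7.99 and 7.49 in ctrl and 9.01, 9.18 and 9.77 in HL60 late and rose by 1.62 (adjusted p = 2.82e-05). HL60 late 399 was the highest library for all 3 genes, and the 2 groups were apart for each.

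Promoters of the named interferon and chemokine genes were read for the interferon response motif because these genes were called higher in HL60 late than in ctrl. The motif, GAAA followed by any 2 bases and a further GAAA, was searched on both strands of 300-base windows from RefSeq (GRCm38.p6), overlapping matches counted. Of all 27025 genes with a window, 3.99% held it. Windows were found for 21 of the 28 tested interferon-stimulated genes, and 14 of those 21 (66.7%) held the motif, 7 of 10 among called genes and 7 of 11 among genes that were not called. Among the named genes that rose, Cxcl10, Cxcl14, Gbp2, Gbp3 and Gbp7 held it. Cxcl9, Cxcl12, Cxcl13 and Il1rn had windows without these letters, and Ccl2 and Zbp1 had no window. Gbp3 rose by 1.95 (adjusted p = 0.021). Gbp3 lost its call without ctrl 375 (1.52) or HL60 late 399 (1.53). A match is a description of the letters only. The windows that hold it follow, 5′ to 3′ on the strand of the gene, with the motif or its reverse complement in capitals. Gbp3 holds 2 overlapping matches.
Cxcl14 (chr13:56296502-56296801, minus strand): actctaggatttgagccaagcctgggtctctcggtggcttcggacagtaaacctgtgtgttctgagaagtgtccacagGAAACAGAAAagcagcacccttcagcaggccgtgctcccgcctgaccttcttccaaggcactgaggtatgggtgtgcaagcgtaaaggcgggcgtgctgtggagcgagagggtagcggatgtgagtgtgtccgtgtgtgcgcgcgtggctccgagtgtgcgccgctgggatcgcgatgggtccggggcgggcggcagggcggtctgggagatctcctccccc
Cxcl10 (chr5:92348840-92349139, minus strand): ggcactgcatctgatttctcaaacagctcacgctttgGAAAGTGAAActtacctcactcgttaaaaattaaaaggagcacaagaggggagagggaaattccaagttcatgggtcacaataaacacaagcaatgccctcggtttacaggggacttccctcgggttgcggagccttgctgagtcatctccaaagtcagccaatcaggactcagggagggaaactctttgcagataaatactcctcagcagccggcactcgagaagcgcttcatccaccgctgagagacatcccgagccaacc
Gbp2 (chr3:142620413-142620712, plus strand): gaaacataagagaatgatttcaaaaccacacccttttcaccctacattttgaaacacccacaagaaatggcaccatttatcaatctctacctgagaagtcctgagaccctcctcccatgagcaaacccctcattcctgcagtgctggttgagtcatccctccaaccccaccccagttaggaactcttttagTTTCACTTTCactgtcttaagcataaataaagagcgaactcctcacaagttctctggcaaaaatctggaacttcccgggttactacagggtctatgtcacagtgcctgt
Gbp3 (chr3:142559794-142560093, plus strand): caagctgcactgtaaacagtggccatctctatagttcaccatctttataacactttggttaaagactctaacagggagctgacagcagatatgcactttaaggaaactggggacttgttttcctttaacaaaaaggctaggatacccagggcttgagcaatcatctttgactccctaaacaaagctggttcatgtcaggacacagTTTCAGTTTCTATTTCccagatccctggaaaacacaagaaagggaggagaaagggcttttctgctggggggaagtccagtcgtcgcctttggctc
Gbp7 (chr3:142530086-142530385, plus strand): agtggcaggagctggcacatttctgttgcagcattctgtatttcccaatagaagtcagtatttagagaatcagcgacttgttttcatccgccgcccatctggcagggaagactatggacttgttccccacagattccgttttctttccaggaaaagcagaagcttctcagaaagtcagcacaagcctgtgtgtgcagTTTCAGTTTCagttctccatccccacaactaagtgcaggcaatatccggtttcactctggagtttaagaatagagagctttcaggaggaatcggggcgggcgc

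Genes of antigen presentation by MHC class I were higher in 3 of 15 tested cases and lower in none, with a median of 0.53, and leave-one-out fits gave a median of 0.34 (ctrl 375), 5 higher (ctrl 373) and 1 higher (ctrl 375). H2-K1, a heavy chain, stood at 9.85, 9.18 and 8.80 in ctrl and 10.23, 10.25 and 10.16 in HL60 late and rose by 0.94 (adjusted p = 0.00243). H2-D1, another heavy chain, rose by 0.53 (adjusted p = 0.0183) with groups that touched, ctrl 373 lying above HL60 late 399. H2-D1 lost its call without ctrl 374 (0.44) or 375 (0.44).

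Complement genes, whose products tag cells and debris, were higher in 6 and lower in 1 of 11 tested cases, with a median of 0.89, and leave-one-out fits gave 0 lower (ctrl 375, HL60 late 399). C4b, a core component, stood at 12.28, 11.54 and 11.54 in ctrl and 12.97, 12.99 and 12.78 in HL60 late and rose by 1.13 (adjusted p = 4.65e-05). Clu, or clusterin, which restrains the final complex, stood at 10.37, 10.07 and 9.60 in ctrl and 11.30, 11.29 and 10.99 in HL60 late and rose by 1.18 (adjusted p = 0.000249).

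Of the immediate responses to NF-kB and AP-1 signals, 3 of 31 genes were higher and 6 lower, with a median of 0.02 (0.59 with 19 higher and 2 lower under rescaling). Fits without 1 library gave a median of -0.04 (ctrl 373, HL60 late 397), -0.06 (HL60 late 398), -0.01 (ctrl 375), 0.00 (ctrl 374) and 0.01 (HL60 late 399). They gave 1 higher (ctrl 374, HL60 late 398), 5 higher (ctrl 375) and 0 higher (HL60 late 399). Quantile normalization gave a median of -0.02. Atf3, a stress-induced transcription factor, stood at 9.64, 9.94 and 9.69 in ctrl and 8.60, 8.38 and 8.83 in HL60 late and fell by 1.15 (adjusted p = 5.01e-05). Relb, a subunit of NF-kB in the non-canonical pathway, stood at 4.76, 4.40 and 4.46 in ctrl and 5.17, 5.97 and 6.09 in HL60 late and rose by 1.2 (adjusted p = 0.0505). Relb lost its call without ctrl 374 (1.13) or 375 (1.16) or HL60 late 398 (1.09) or 399 (1.03).

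Of 16 metallothionein and oxidative stress genes, 4 were higher and none lower (median 0.56), and leave-one-out fits gave a median of 0.32 (ctrl 375), 0.36 (HL60 late 398) and 2 higher (ctrl 375, HL60 late 398, 399). Gpx3, a secreted glutathione peroxidase, stood at 13.05, 12.81 and 12.79 in ctrl and 13.83, 13.87 and 13.70 in HL60 late and rose by 0.92 (adjusted p = 0.000548). Nfe2l2, the regulator of antioxidant genes, stood at 9.45, 9.94 and 9.58 in ctrl and 10.04, 10.27 and 10.33 in HL60 late and rose by 0.55 (adjusted p = 0.0264). Nfe2l2 lost its call without ctrl 373 (0.45) or HL60 late 399 (0.50). Among 14 p53 targets and senescence genes, 1 was higher and none lower (median 0.13). Without 1 library, fits gave a median of 0.03 (ctrl 373, HL60 late 397), 0.06 (ctrl 375), 0 higher (ctrl 374, HL60 late 398, 399) and 1 lower (ctrl 375, HL60 late 398). Gadd45b, a damage-induced gene, rose by 0.72 (adjusted p = 0.047), and the cell cycle inhibitor Cdkn1a, with 11.53, 11.51 and 11.68 in ctrl and 11.42, 11.87 and 10.77 in HL60 late, was not called. Gadd45b lost its call without ctrl 374 (0.64) or 375 (0.69) or HL60 late 398 (0.57) or 399 (0.73). Among 17 genes of the integrated stress response and heat shock, 1 was higher and 1 lower (median 0.16). Dropping 1 library gave a median of 0.08 (ctrl 373, 374), 0.35 (ctrl 375), 0 higher (ctrl 373, 374, HL60 late 398, 399) and 2 higher (ctrl 375). Psat1, an enzyme of serine synthesis, fell by 1.54 (adjusted p = 0.00221), and the chaperone Hspa8 rose by 0.45 (adjusted p = 0.0481). Hspa8 lost its call without ctrl 373 (0.39) or 374 (0.38) or HL60 late 398 (0.38) or 399 (0.42).

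Hypoxia and glycolysis genes were lower in 3 of 21 cases (1 under quantile normalization), with a median of -0.38 that became 0.19 under rescaling (5 higher). Leave-one-out fits gave 1 higher (ctrl 375), 0 lower (ctrl 373, HL60 late 398) and 1 lower (HL60 late 397). The glucose transporter Slc2a1 fell by 0.67 (adjusted p = 0.0943), a call lost under rescaling. The glycolytic enzymes Pkm and Ldha fell by 0.53 and 0.52, but were at 0.04 and 0.05 after rescaling. Slc2a1 lost its call without ctrl 373 (-0.54) or 374 (-0.62) or HL60 late 397 (-0.70), 398 (-0.67) or 399 (-0.65). Pkm lost its call without ctrl 373 (-0.33) or HL60 late 397 (-0.54) or 398 (-0.41). Ldha lost its call without ctrl 373 (-0.43) or HL60 late 398 (-0.41). Fatty acid and lipid genes were lower in 4 and higher in 1 of 12 cases, with a median of -0.38 that became 0.19 under rescaling, and leave-one-out fits gave 0 higher (ctrl 375) and 2 lower (HL60 late 398). Scd1, a desaturase, fell by 0.92 (adjusted p = 0.0006), and Me1, which supplies reducing power, by 1.05 (adjusted p = 0.0128). Both lost their call under rescaling. No gene of cholesterol synthesis was called among 19 by limma, with 1 at an unadjusted p under 0.05 and a median of 0.12 (0.69 with 7 higher and 0 lower under rescaling), and its members with the highest values, Insig1 and Srebf2, had log2 fold changes of -0.41, which was 0.16 under rescaling, and 0.22. Leave-one-out fits gave a median of -0.08 (ctrl 373), -0.04 (ctrl 375), 0.02 (HL60 late 397) and 0.01 (HL60 late 399).

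Nuclear genes of oxidative phosphorylation gave 0 calls of 23 in limma and 0 at an unadjusted p under 0.05, with a median of -0.12 (0.45 under rescaling and -0.07 without ctrl 375), and the ATP synthase genes Atp5b and Atp5a1 stood at log2 fold changes of -0.15 (0.42 under rescaling) and 0.16. Of 13 mitochondrially encoded genes, 1 was lower (0 under quantile normalization), with a median of -0.25 (0.32 under rescaling). It was mt-Co3, a subunit of cytochrome oxidase, with 0.45 (adjusted p = 0.0904) as the size of its fall and 0.12 after rescaling, and mt-Co1 at -0.31 was not called. mt-Co3 lost its call without ctrl 374 (-0.48) or 375 (-0.35) or HL60 late 397 (-0.51), 398 (-0.51) or 399 (-0.34). Ribosomal protein genes were lower in 2 of 36 cases with a median of -0.14 (0.43 with 24 higher and 0 lower under rescaling), and leave-one-out fits gave a median of -0.08 (HL60 late 399), 0 lower (ctrl 373, HL60 late 399) and 1 lower (ctrl 375, HL60 late 397, 398). Rps3 and Rps15 fell by 0.41 and 0.39, and turned to 0.16 and 0.18 under rescaling. No ribosomal protein gene was called under quantile normalization. Over all tested genes 7.24% were lower, so the few lower calls among mitochondrially encoded and ribosomal protein genes are close to that share. Rps3 lost its call without ctrl 373 (-0.30) or 375 (-0.42) or HL60 late 398 (-0.37) or 399 (-0.38). Rps15 lost its call without ctrl 373 (-0.31) or 375 (-0.41) or HL60 late 397 (-0.42), 398 (-0.44) or 399 (-0.32).

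Cell cycle genes were lower in 3 and higher in 1 of 21 cases, with a median of -0.38 that became 0.19 under rescaling. Leaving out 1 library gave a median of -0.18 (ctrl 373), -0.62 (ctrl 374), -0.22 (HL60 late 398), 0 higher (ctrl 374, HL60 late 398, 399) and 1 lower (HL60 late 398). Ccna2, a cyclin of S phase and mitosis, stood at 6.84, 5.63 and 6.48 in ctrl and 4.47, 3.79 and 4.92 in HL60 late and fell by 1.92 (adjusted p = 0.00242). Mki67, the proliferation marker, stood at 9.01, 9.0 and 8.96 in ctrl and 8.48, 7.10 and 8.18 in HL60 late and fell by 1.07 (adjusted p = 0.0149). The call of Mki67 was also lost under rescaling. Mki67 lost its call without HL60 late 398 (-0.66).

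Clock genes were lower in 2 of 15 cases and higher in none, with a median of 0.05 (0.62 with 7 higher and 1 lower under rescaling). Fits without 1 library gave a median of -0.13 (ctrl 373), 0.00 (ctrl 374), 0.15 (ctrl 375, HL60 late 397), -0.36 (HL60 late 398), 0.20 (HL60 late 399), 1 higher (HL60 late 399) and 1 lower (ctrl 373, 374, HL60 late 397). Bhlhe40, a repressor of the clock, stood at 11.01, 11.35 and 11.04 in ctrl and 9.79, 10.22 and 10.05 in HL60 late and fell by 1.11 (adjusted p = 2.2e-06), and its relative Bhlhe41 fell by 0.85 (adjusted p = 0.0851), a call lost under rescaling. Bhlhe41 lost its call without ctrl 373 (-0.76) or 374 (-0.74) or HL60 late 397 (-0.74) or 398 (-0.72). Of 6 nuclear long non-coding RNAs, 1 was higher and 1 lower, with a median of -0.44 (0.13 under rescaling and -0.05 under quantile normalization). Without 1 library, fits gave a median of -0.27 (ctrl 375), -0.29 (HL60 late 398), 0 higher (ctrl 373, 375, HL60 late 397, 399), 2 lower (ctrl 373, 374) and 0 lower (ctrl 375, HL60 late 398, 399). Meg3, an imprinted transcript, rose by 1.37 (adjusted p = 0.0673), and Neat1, the scaffold of paraspeckles, fell by 0.74 (adjusted p = 0.0618) with a call that was lost under rescaling. Meg3 lost its call without ctrl 373 (1.35) or 375 (1.17) or HL60 late 397 (1.05) or 399 (1.35). Neat1 lost its call without ctrl 375 (-0.62) or HL60 late 398 (-0.77) or 399 (-0.64).

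Subunits of the Na+/K+ ATPase and their FXYD partners were lower in 4 (2 without HL60 late 399) and higher in none of 9 cases, with a median of -0.66 (-0.09 under rescaling). Atp1b3, a beta subunit, stood at 10.97, 10.66 and 11.02 in ctrl and 9.58, 9.68 and 9.50 in HL60 late and fell by 1.30 (adjusted p = 1.17e-06). Atp1b2, another, fell by 0.99 (adjusted p = 0.00447), a call lost under rescaling. Of 16 potassium and calcium channel genes, 2 were lower and none higher (median -0.13, 0.44 under rescaling), and leave-one-out fits gave a median of 0.00 (ctrl 374), -0.23 (ctrl 375) and 1 lower (ctrl 373, 374, HL60 late 398, 399). Kcnma1, the pore of the large-conductance potassium channel, stood at 9.69, 9.60 and 9.71 in ctrl and 7.77, 8.24 and 7.96 in HL60 late and fell by 1.68 (adjusted p = 2e-06), and its smooth muscle partner Kcnmb1 fell by 1.58 (adjusted p = 0.0823), a call lost under rescaling. Kcnmb1 lost its call without ctrl 373 (-1.43) or 374 (-1.53) or HL60 late 398 (-1.27) or 399 (-1.53).

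Adhesion molecules were higher in 5 and lower in 6 of 28 cases, with a median of -0.08 (0.49 with 12 higher and 4 lower under rescaling), and leave-one-out fits gave a median of 0.06 (ctrl 375), -0.19 (HL60 late 397) and 0.05 (HL60 late 399). Itga6, a receptor for laminin, stood at 8.01, 8.88 and 8.52 in ctrl and 6.31, 6.17 and 6.01 in HL60 late and fell by 2.31 (adjusted p = 7.51e-07). Itga9, a receptor for tenascin and other matrix ligands, stood at 7.67, 7.61 and 8.54 in ctrl and 9.95, 9.70 and 9.55 in HL60 late and rose by 1.80 (adjusted p = 8.01e-05). Position genes of the HOX and limb patterning list were higher in 1 and lower in 1 of 22 cases, with a median of 0.26 (0.83 with 10 higher and 1 lower under rescaling), and leave-one-out fits gave 0 higher (ctrl 374, HL60 late 397) and 3 lower (ctrl 375). Calls in this list were no more frequent than over all tested genes, with 6.46% higher and 7.24% lower there. Tbx2 fell by 1.25 (adjusted p = 0.00226) and Meis2 rose by 1.19 (adjusted p = 0.0397). Meis2 lost its call without ctrl 373 (0.85) or 374 (1.01) or HL60 late 397 (1.16).

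Markers of other cell types were counted in the same libraries, with sums taken after conversion from log2. Because levels of different genes are not comparable, a sum is compared between libraries only and is no measure of cell number. Erythroid markers were lower in 5 of 14 tested cases (median -0.53, 0.04 under rescaling), and they summed to 950, 1196 and 1335 in ctrl and 733, 763 and 647 in HL60 late, with Fech the gene of highest value. Hbb-bs, a beta-globin gene, stood at 7.15, 7.73 and 7.90 in ctrl and 4.77, 4.64 and 4.63 in HL60 late and fell by 2.92 (adjusted p = 1.16e-08). Hba-a1, an alpha-globin gene, stood at 5.63, 6.67 and 8.03 in ctrl and 5.26, 4.14 and 4.24 in HL60 late and fell by 2.23 (adjusted p = 0.000616). Both were below ctrl in all HL60 late libraries. Alas2, at 3.34, 4.53 and 3.60 in ctrl and 3.12, 3.11 and 2.96 in HL60 late, was close to the floor in HL60 late and was not called. Myeloid and neutrophil markers were lower in 1 of 17 cases, with a median of -0.09 (0.48 under rescaling) and sums of 644, 419 and 839 in ctrl and 392, 468 and 333 in HL60 late. Dropping 1 library gave a median of -0.18 (ctrl 373, HL60 late 397), 0.00 (ctrl 375), 2 lower (ctrl 373), 3 lower (ctrl 374) and 0 lower (HL60 late 397, 399). Lyz2, or lysozyme, had the highest value and fell by 1.04 (adjusted p = 0.0828), a call lost under rescaling. Lyz2 lost its call without ctrl 373 (-0.68) or HL60 late 397 (-1.04) or 399 (-0.65). S100a9, S100a8 and Itgam were at 4.50 or less in all 6 libraries and were not called. Lower calls were no more frequent in the myeloid list than over all tested genes, of which 7.24% were lower. CD45+ cells had been removed before the sort, which also used stains for CD45 and Ter119, and the part of remaining blood RNA in the falls above was not tested.

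Endothelial markers were higher in 2 and lower in 1 of 16 cases, with a median of -0.13 (0.44 under rescaling) and sums of 1123, 1146 and 1192 in ctrl and 1366, 1156 and 1170 in HL60 late, so the 2 groups overlapped in their total. Leave-one-out fits gave a median of -0.20 (ctrl 373), -0.08 (HL60 late 398), -0.01 (HL60 late 399), 0 higher (ctrl 374, HL60 late 397, 399), 1 higher (ctrl 375) and 0 lower (ctrl 374). Eng, the gene of highest value, which stromal cells also express, rose by 0.66 (adjusted p = 0.0425), and Ly6c1 fell by 1.41 (adjusted p = 0.0152). Eng lost its call without ctrl 374 (0.54) or HL60 late 397 (0.62) or 399 (0.61). Ly6c1 lost its call without ctrl 374 (-1.08). Skeletal muscle markers were lower in 2 of 11 cases, with a median of -0.67 (-0.10 with 0 lower under rescaling), and summed to 755, 956 and 505 in ctrl and 587, 494 and 371 in HL60 late, with Des highest, and leave-one-out fits gave a median of -0.33 (ctrl 373) and 1 lower (ctrl 373, 374, HL60 late 397, 398, 399). Ttn, or titin, fell by 1.19 (adjusted p = 0.0291) and Acta1, skeletal actin, by 1.56 (adjusted p = 0.0724), and both calls were lost under rescaling. Acta1 lost its call without ctrl 373 (-0.97) or 374 (-1.50) or HL60 late 397 (-1.63), 398 (-1.53) or 399 (-1.53). Ckm and Tnnt3 were above the floor in ctrl 373 only, at 4.52, 2.82 and 2.85 in ctrl and 2.78, 2.70 and 2.70 in HL60 late and at 4.62, 2.68 and 2.72 in ctrl and 2.63, 2.66 and 2.78 in HL60 late, and Myh4 was at the floor. Their part in the result was not tested.

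Schwann cell markers were lower in 3 of 9 cases, with a median of -0.58 (-0.01 with 1 lower under rescaling), and summed to 2931, 2915 and 1967 in ctrl and 1746, 2970 and 1850 in HL60 late, with Pmp22, which many cells express, highest. Leaving out 1 library gave a median of -0.23 (ctrl 374), -1.38 (ctrl 375), 5 lower (ctrl 375) and 1 lower (HL60 late 399). Ncmap, a myelin protein gene, stood at 5.71, 4.03 and 5.58 in ctrl and 2.80, 3.88 and 2.65 in HL60 late and fell by 2.00 (adjusted p = 0.0039), and Mbp, or myelin basic protein, fell by 1.67 (adjusted p = 0.0424), a call lost under rescaling. Mbp lost its call without ctrl 373 (-1.60) or HL60 late 397 (-1.28) or 399 (-1.63). The defining gene Sox10 stood at 5.48, 6.56 and 3.60 in ctrl and 4.79, 5.07 and 4.02 in HL60 late and was not called, although without ctrl 375 it was called lower at -1.39. Osteoclast markers gave 0 calls of 5 in limma and 2 at an unadjusted p under 0.05 (median -0.26, 0.31 under rescaling), and summed to 958, 1079 and 1159 in ctrl and 800, 910 and 848 in HL60 late, with Nfatc1 highest. Fits without 1 library gave a median of -0.72 (ctrl 373), -0.16 (ctrl 374), -0.15 (HL60 late 397) and 1 lower (ctrl 373, HL60 late 398). Acp5 stood at 4.46, 6.50 and 5.84 in ctrl and 5.00, 5.52 and 5.49 in HL60 late, Ctsk had a log2 fold change of -0.15, Nfatc1 of -0.56, called lower only without ctrl 373 (-0.72), and Calcr was at the floor. The part of Schwann cells and osteoclasts in the result was not tested. Of the sex-linked genes only Xist was tested, at 13.05, 12.98 and 13.55 in ctrl and 13.36, 12.89 and 13.17 in HL60 late, with a log2 fold change of -0.06 (0.51 and called under rescaling), and it was not called by limma, nor under an unadjusted p of 0.05. Fits without 1 library gave Xist a log2 fold change of 0.12 (ctrl 375), 0.07 (HL60 late 398), -0.13 (ctrl 373) and -0.16 (ctrl 374, HL60 late 397). The Y-linked genes Ddx3y, Eif2s3y, Kdm5d and Uty were at 2.62 or less in all 6 libraries.

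The other lists whose counts changed under rescaling to library totals are given here as genes higher/lower. The first were CAR cell 20/0, pericyte 5/1, marrow adipocyte 7/0, laminin 6/0, basement membrane 6/1, Wnt inhibitor and target 7/2, BMP and TGF-beta 20/2, insulin-like growth factor 7/0, Notch and Hedgehog 10/2, fibroblast growth factor and angiogenic 9/1, interferon-stimulated 24/0, MHC class I 12/0 and complement 10/0. The rest were metallothionein and oxidative stress 13/0, p53 target 5/0, integrated stress and heat shock 9/1, fatty acid 3/0, cell cycle 2/1, nuclear oxidative phosphorylation 8/0, mitochondrially encoded 4/0, nuclear non-coding 2/0, Na+/K+ ATPase 1/1, channel 4/1, myeloid 2/0, erythroid 3/4, endothelial 5/1, osteoclast marker 1/0 and osteoblast transcription factor 2/3.

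The remaining called genes that are named are given here by log2 fold change alone for length. Higher were Serpina3f (2.93), Sh3rf3 (2.86), Tmem140 (2.81), Ifi207 (2.69), Csf1 (0.51), Adipor2 (1.16), Apoe (0.68), Lamb1 (1.58), Lama3 (1.11), Nid1 (1.53), Ccn5 (2.48), Ror1 (1.54), Wnt5b (1.41), Nkd2 (1.24), Tgfb3 (1.72), Bmp5 (1.50), Igfbp7 (1.23), Hgf (1.47), Maff (1.39), Tapbp (0.73), Cfb (1.28), C1ra (1.18), Sod3 (0.60), Sod1 (0.47), Tyms (1.15), Erg (1.06) and Foxc1 (0.75). Lower were Tmem196 (-2.81), Col9a3 (-2.81), Cnmd (-2.80), Twist1 (-0.89), Myocd (-1.42), Tagln (-1.08), Col15a1 (-1.72), Col27a1 (-1.75), Col5a2 (-1.53), Lum (-1.22), Fmod (-1.20), Pcolce2 (-1.82), P4ha1 (-1.11), Tcf7 (-1.75), Igf2 (-0.88), Nrarp (-1.38), Fgfr3 (-1.27), Nr4a2 (-1.05), Scd2 (-0.80), Fasn (-0.78), Top2a (-1.34), Fxyd1 (-0.66), Itgb8 (-2.25), Itga10 (-1.64), Hba-a2 (-2.05) and Hbb-bt (-1.77). Rescaling to library totals ended the calls of Twist1, Myocd, Tagln, Fmod, Igf2, Nrarp, Nr4a2, Scd2, Fasn, Top2a and Fxyd1. Calls ended without ctrl 374 for Twist1 (-0.68), Tagln (-0.80), Lama3 (1.10), Igf2 (-0.68), Nrarp (-1.33), Sod1 (0.25), Tyms (1.03), Fxyd1 (-0.58), Erg (1.05) and Foxc1 (0.58). Calls ended without ctrl 375 for Twist1 (-0.74), Csf1 (0.40), Lama3 (1.08), Ror1 (0.88), Nrarp (-1.28), Hgf (1.10), Tapbp (0.57), Sod3 (0.58), Sod1 (0.51), Fasn (-0.70), Top2a (-0.85) and Erg (0.81). Calls ended without HL60 late 397 for Csf1 (0.52), Myocd (-1.26), Wnt5b (1.11), Igf2 (-0.71), Tapbp (0.72), Sod1 (0.46), Fasn (-0.82) and Erg (1.03). Calls ended without HL60 late 398 for Csf1 (0.39), Tagln (-0.89), Igf2 (-0.98), Nrarp (-0.75), Hgf (1.48), Sod3 (0.65), Sod1 (0.42), Scd2 (-0.59), Fasn (-0.63), Top2a (-0.79) and Tyms (1.09). Calls ended without HL60 late 399 for Tagln (-1.02), Lama3 (0.88), Igf2 (-0.94), Hgf (1.35), Maff (1.15), Nr4a2 (-0.88), Tapbp (0.65), Sod3 (0.49), Sod1 (0.54), Tyms (1.14), Fxyd1 (-0.55) and Erg (0.89). Calls ended without ctrl 373 for Wnt5b (1.10), Igf2 (-0.90), Hgf (1.37), Maff (1.14), Sod3 (0.55), Fasn (-0.79) and Top2a (-1.26).

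The direct test against ML1 late asks where the late marrow of the 2 leukemia lines differs, and it needs no ctrl library. The treatment field of the ML1 late libraries says unengrafted, against their title and time point, and they were kept as ML1 late. Many osteoblast and cartilage genes were higher in HL60 late than in ML1 late, and several inflammatory genes were lower. In limma, 410 genes (3.16%) were higher and 122 (0.940%) lower in HL60 late. Rescaling moved all log2 fold changes by -0.25 and lowered the share of higher genes among the calls from 77.1% to 37.0%, so the balance of directions depends on the scaling. The tests against ML1 late and against ctrl share the HL60 late libraries, so no overlap of their calls is counted.

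Bglap stood at 10.04, 9.32 and 9.63 in ML1 late, below the 13.24, 12.94 and 12.77 of HL60 late, and was higher in HL60 late by 3.3 (adjusted p = 1.09e-15), while the log2 fold changes against ctrl were -2.31 for HL60 late and -5.63 for ML1 late. Bglap2 was higher by 3.15 (adjusted p = 3.57e-15), with 10.14, 9.40 and 9.66 in ML1 late. Phospho1 stood at 6.52, 5.26 and 6.03 in ML1 late and was higher in HL60 late by 2.88 (adjusted p = 4.65e-10). For these genes HL60 late lay between ctrl and ML1 late in every library. Among osteoblast matrix and mineral genes, 17 of 20 were higher in HL60 late than in ML1 late and 1 lower, with a median of 1.83. Sp7 was higher by 2.01 (adjusted p = 3.56e-09). Of the cartilage genes, 10 of 19 were higher and none lower (median 1.75), and Col2a1, at 11.70, 11.35 and 11.02 in ML1 late, was higher by 1.99 (adjusted p = 2.96e-05). Slc13a5, a citrate transporter that osteoblasts use, stood at 11.49, 11.02 and 11.70 in ctrl and 9.67, 9.85 and 9.14 in HL60 late, and at 7.49, 6.38 and 6.12 in ML1 late. Cpz, a carboxypeptidase that binds Wnt, stood at 10.26, 10.29 and 10.47 in ctrl and 9.07, 8.68 and 8.57 in HL60 late, and at 6.48, 5.28 and 5.18 in ML1 late. Both genes fell against ctrl, by 1.85 (adjusted p = 1.56e-06) and by 1.57 (adjusted p = 4.23e-05), and were higher in HL60 late than in ML1 late by 2.89 and 3.13.

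Matricellular and elastic fibre genes were higher than in ML1 late in 16 and lower in 1 of 27 cases. Mfap4, at 3.40, 3.77 and 4.55 in ML1 late, was higher in HL60 late by 2.85 (adjusted p = 2.57e-05). Unlike the bone genes named in the preceding paragraph, it was also higher than in ctrl. Small leucine-rich proteoglycans were higher in 7 of 9 cases, with Dcn at 12.02, 11.74 and 12.02 in ML1 late and a difference of 1.80 (adjusted p = 1.72e-11). Cxcl13 stood at 4.27, 3.91 and 3.06 in ML1 late, well under HL60 late, a difference of 2.70 (adjusted p = 0.000147). Igf1, at 10.84, 11.28 and 11.21 in ML1 late, differed by 1.37 (adjusted p = 8.98e-05).

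On the other side, Ccl2 stood at 10.31, 9.64 and 10.75 in ML1 late against 7.55, 7.69 and 7.69 in HL60 late and was lower in HL60 late, with a log2 fold change of -2.59 (adjusted p = 5.39e-05). Cxcl10, at 8.13, 7.48 and 8.07, differed by -1.56 (adjusted p = 0.085), and Ifi203, a p200 family gene that overlaps Mndal on the same strand, by -1.41 (adjusted p = 0.00887). A pair of genes without a curated name belongs here too, Gm26582 with -1.86 (adjusted p = 0.0145) and 3110080E11Rik with -1.57 (adjusted p = 0.0559). Of 31 NF-kB and AP-1 response genes, 13 were lower and 1 higher in HL60 late than in ML1 late (median -0.48), and of 17 stress and heat shock genes 7 were lower. CAR cell genes differed little, with 1 lower, none higher and a median of 0.00 in limma.

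**Figure D3:**
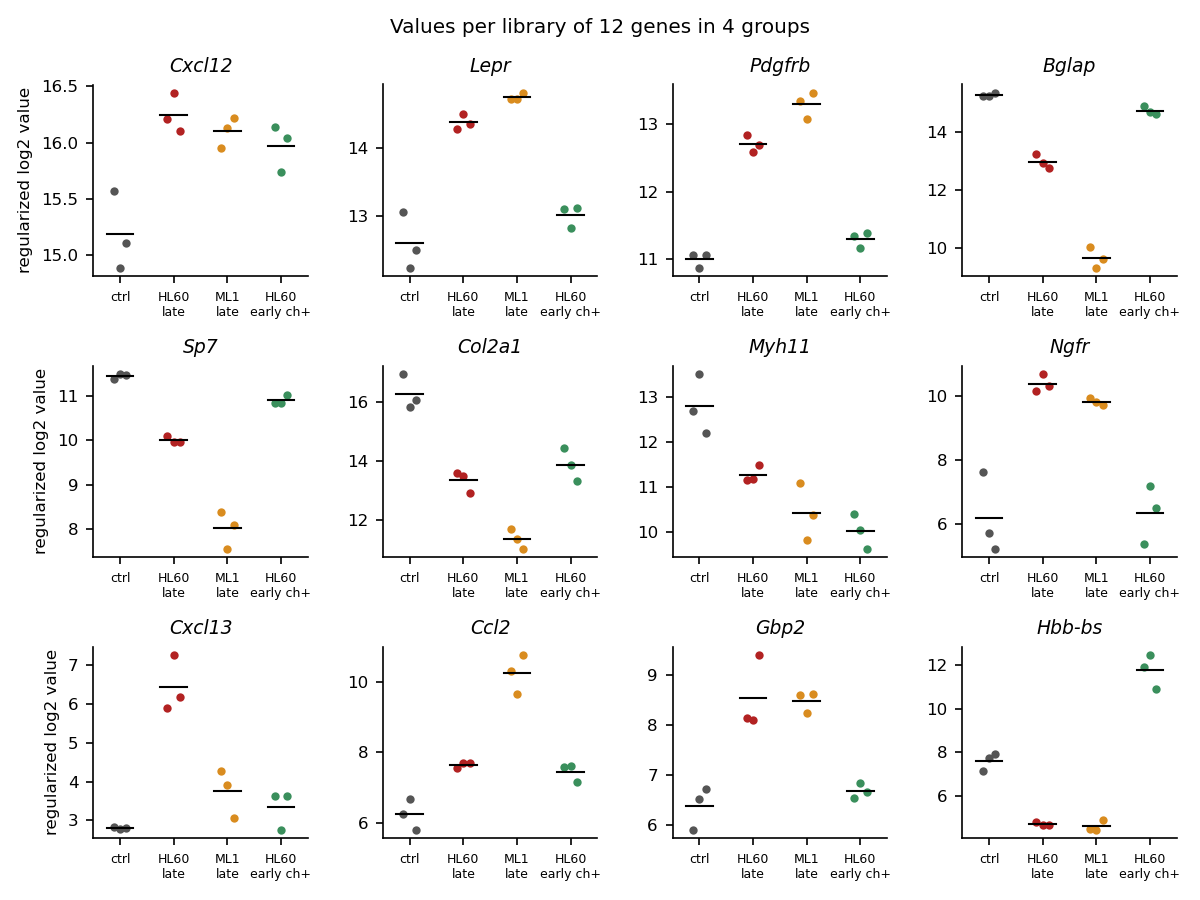
Regularized log2 value (vertical axis) of 12 genes in each library of ctrl, HL60 late, ML1 late and HL60 early ch+ (horizontal axis), 3 points per group, with the group mean as a black bar. The vertical axes do not start at 0 and differ between genes. For Bglap, Sp7 and Col2a1 all HL60 late libraries lie below ctrl and above ML1 late, while for Ngfr and Lepr the 2 late groups both lie above ctrl.

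The test against HL60 early ch+ asks how late cells differ from cherry-marked cells taken early in the same leukemia. The early libraries held much more blood cell RNA. In limma, 551 genes (4.24%) were higher and 772 (5.95%) lower in HL60 late, and rescaling added 0.47 to all log2 fold changes. Both this test and that against ctrl use the HL60 late libraries, so no overlap of their calls is counted. The erythroid sums were 9638, 14034 and 5321 and the myeloid sums 2518, 3421 and 1621 in HL60 early ch+, several-fold above HL60 late, and 9 of 14 erythroid and 13 of 17 myeloid markers were lower in HL60 late. Hbb-bs stood at 11.95, 12.47 and 10.90 in HL60 early ch+, a log2 fold change of -7.10 (adjusted p = 4.68e-17), and Ptprc at 5.58, 5.24 and 3.81. Skeletal muscle markers were lower too in 8 of 11 cases, with 1 higher. Mitochondrially encoded genes were lower in 11 of 13 cases (median -1.22), mt-Co1 with a log2 fold change of -1.32 (adjusted p = 1.45e-06). The part of blood, muscle and mitochondrial RNA in this comparison was not tested.

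Ngfr stood at 5.37, 7.19 and 6.52 in HL60 early ch+, in the range of ctrl, and was higher in HL60 late by 4.03 (adjusted p = 1.85e-05). Lepr, at 13.11, 12.83 and 13.12, was higher in HL60 late by 1.37 (adjusted p = 4.07e-07), and Pdgfrb, at 11.35, 11.17 and 11.39, by 1.40 (adjusted p = 1.34e-07). Cxcl12, at 16.14, 15.74 and 16.04 in HL60 early ch+, differed by 0.27 (adjusted p = 0.477) and was not called. Of the CAR cell genes, 6 of 21 were higher late and 2 lower. Bglap, at 14.90, 14.72 and 14.64, was lower in HL60 late with a log2 fold change of -1.77 (adjusted p = 8.6e-10), and 15 of 20 osteoblast matrix genes were lower late and 4 higher (median -0.74). Col2a1, at 14.44, 13.86 and 13.31, differed by -0.53 (adjusted p = 0.377) and was not called, and the cartilage list gave 3 lower and 1 higher of 19 (median 0.53). Heyl, at 9.26, 9.42 and 9.35, was higher in HL60 late by 2.55 (adjusted p = 1.67e-11). Myh11, at 10.40, 10.04 and 9.62, was higher in HL60 late than early by 1.25 (adjusted p = 0.00212), the reverse of its direction against ctrl, and 7 of 14 smooth muscle genes were higher late.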

How the data were processed

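The values are the log2 table deposited by the authors, whose processing notes name RSEM 1.2.29, STAR 2.5.1b, the build mm10 and regularized values from DESeq2 1.10.1 by the authors. The methods text names a logarithm to base 10, but the deposited values run from -2.33 to 22.44 and were read as log2. Gene identities come from GENCODE M21, to which 26722 of 26852 identifiers were matched. Genes with a mean of at least 3.32 over the 21 libraries were tested (12980). A limma model with 1 mean per group over 7 groups and a mean-variance trend gave fold changes and p-values, adjusted by Benjamini and Hochberg, and genes with an adjusted p under 0.1 were called.

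Alternatives were no filter, a mean of at least 5, quantile normalization, rescaling to library totals with and without the rRNA gene, centring on the median, 2 groups only, no trend, robust moderation, sample weights, an adjusted p under 0.05, a log2 fold change of at least 1, and each library left out in turn.

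Named genes are the 12 per direction with the largest fold change among called genes whose groups do not overlap, up to 4 called members of each list with the largest fold change (where fewer than 2 are called, the tested members with the highest mean), Nes, Ptprc and Pecam1, and 6 per direction from the test against ML1 late that are also called against ctrl. Gene models without a curated name were left out of the first group. The rule also picks genes for which only the fold change is printed, and that choice was made for length after their values were seen. Cxcl12, Kitl, Foxc1, Pdgfra, Adipoq, the cell type markers that were not called, the Y-linked genes and the 3 gene models without a curated name were named beyond the rule, after their values were seen. The libraries and the gene lists were chosen with earlier results of these data known. Some genes that the rule picks are not reported here. Promoter windows are those of RefSeq (GRCm38.p6).

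Tools were R 4.3.3, limma 3.58.1, Python 3.11.15, pandas 2.3.3 and matplotlib 3.10.9.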

Additional observations from a re-analysis of the deposited data

Results flagged for a closer look

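A difference between the 2 late groups marks the results of this paragraph. Each value is the log2 fold change of HL60 late minus ML1 late. For 56 of the 219 named genes the test of HL60 late against ML1 late gave an adjusted p under 0.1 in limma. Over all tested genes, 532 (4.10%) did. The 2 shares cannot be compared, because most genes were named for their call against ctrl and some for passing this same test. Both groups are set against the same ctrl libraries, so the ctrl values cancel in this difference. Bone and mineral genes gave Bglap 3.3, Bglap2 3.15, Bglap3 2.62, Col11a2 2.58, Phospho1 2.88, Dlx3 2.19, Mef2c 1.23, Sp7 2.01, Twist1 0.97, Slc13a5 2.89, Cpz 3.13 and Col24a1 1.89. Cartilage genes gave Matn3 2.10, Col2a1 1.99, Col9a3 2.62, Panx3 1.50, Pth1r 0.91, Frzb 1.46, Fgfr3 1.13, Itga10 2.40 and Hhip 1.53. Genes of other matrix gave Ogn 1.32, Dcn 1.80, Lum 1.46, Fmod 2.25, Mfap4 2.85, Mmp16 2.17, Pcolce2 2.36, Col5a2 1.06, Lama4 -0.55, Col4a1 -0.50 and Col6a1 -0.77. Signalling genes gave Lrp4 0.91, Sfrp2 1.87, Fst 1.33, Igf1 1.37, Sema3d 1.81, Ntn1 1.25, Tbx2 1.41 and Pdgfrb -0.58. Inflammatory and stress genes gave Cxcl13 2.70, Nr4a2 0.99, Cxcl10 -1.56, Maff -1.38, Atf3 -0.89, Hspa8 -0.89, Ccl2 -2.59 and Ifi203 -1.41. The others gave Myh11 0.85, Atp1b3 0.81, Kcnma1 1.88, Itga6 2.02, Ly6c1 2.02, Xist -0.68, Gm26582 -1.86 and 3110080E11Rik -1.57. Rescaling to library totals moves each of these values by -0.25. The cause of the differences was not tested.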

How the results depend on the processing

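The scaling of the libraries changed all 3 pairs of counts. With each library rescaled to its total, HL60 late against ctrl gave 5148 genes higher and 379 lower, and 3404 and 432 with the rRNA gene left out of the totals. HL60 late against ML1 late gave 261 and 445 under the first rescaling and 279 lower under the second, and HL60 late against HL60 early ch+ gave 3553 and 361, then 2695 and 392. The rescaling is built to shift all fold changes by 1 amount, and its totals hold the falling genes themselves. With a log2 fold change of at least 1 also asked for, the counts were 557 and 556 against ctrl, 48 lower against ML1 late, and 304 and 483 against HL60 early ch+, because fewer genes can pass. Against ML1 late, a fit of the 2 groups alone gave 633 and 358, sample weights gave 760 and 424, and a fit without the mean-variance trend gave 70 lower. The cause of these 3 changes was not tested. With all libraries kept, the other alternatives held these counts within 1.5 times.

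With 1 library left out at a time, the counts ranged from 601 to 811 higher and 714 to 851 lower against ctrl, from 301 to 358 and 70 to 108 against ML1 late, and from 356 to 500 and 578 to 661 against HL60 early ch+. The lowest 70 came without ML1 late 583 and the lowest 356 without HL60 late 398. The fit pools the spread over all groups.

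Medians of lists that changed sign under both rescalings include, under the first and the second, hypoxia and glycolysis 0.19 and 0.05, fatty acid 0.19 and 0.06, cell cycle 0.19 and 0.06, nuclear OXPHOS 0.45 and 0.31, mitochondrially encoded 0.32 and 0.19, ribosomal protein 0.43 and 0.29, small leucine-rich proteoglycans 0.43 and 0.30, channels 0.44 and 0.30, integrins 0.49 and 0.36, myeloid 0.48 and 0.35, endothelial 0.44 and 0.30, and osteoclast markers 0.31 and 0.17. Under the first alone they were 0.12 for osteoblast transcription factors, 0.13 for nuclear long non-coding RNAs and 0.04 for erythroid markers. The pericyte median ranged from -0.20 without ctrl 373 to 0.36 without ctrl 375. Quantile normalization gave 0 insulin-like growth factor genes lower, 0 integrated stress and heat shock genes higher and 1 endothelial marker higher. It also gave 2 small leucine-rich proteoglycans higher and 1 osteoclast marker lower. Single genes that turned include, at the first rescaling, Pkm (0.04), Ldha (0.05), mt-Co3 (0.12), Nes (0.10), Nfatc1 (0.01), Atp5b (0.42), Pdgfra (0.38), Pecam1 (0.15), Ptprc (0.48), Kdr (0.35), Insig1 (0.16), Cdkn1a (0.35), Acp5 (0.31), Ctsk (0.42), Itgam (0.30), S100a8 (0.51), S100a9 (0.15), mt-Co1 (0.26), Rps3 (0.16), Rps15 (0.18) and Xist (0.51). All but the first 5 turned at the second as well, with 0.03 for Rps3, 0.04 for Rps15 and 0.38 for Xist.

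Of the 186 named genes that were called, 175 kept their call under quantile normalization, 154 and 158 under the 2 rescalings, 186 under centring, 175 in the fit of 2 groups, 164 without trend, 181 with robust moderation, 184 with weights, 152 without a filter, and 132 in all 6 fits that left out a library of HL60 late or ctrl. The depth of each library is not given, and the median standard error was 0.44 for tested genes with a mean under 5 against 0.21 for a mean of 8 to 12, so small changes of weakly expressed genes are the least resolved.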
